A study of Mus musculus with 6 samples.

Results

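Fatty acid synthesis in the liver was followed through 10 genes, Srebf1, Mlxipl, Thrsp, Acly, Acss2, Aacs, Me1, Acaca, Acacb and Fasn, out of 18194 genes measured. They were chosen by name for their place in the pathway, by a rule that used no measured values. Earlier results of these data were known at that point, so the choice was not blind to them. A gene was kept if probe sets on the array were annotated to its symbol and to no other, and all 10 met this. Where several probe sets did, the brightest on average over the 6 arrays was used.

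The livers came from C57BL/6 mice transgenic for CYP2D6, the gene of a human drug-metabolising P450 enzyme. Every group carried the transgene, so no comparison is between genotypes. Whole livers were taken at 3 stages, before pregnancy, on day 21 of pregnancy and on day 7 postpartum. Each stage had 2 arrays, which the labels call biological replicates. Nothing further ties the arrays to separate animals, so the p-values measure the spread between these arrays. The sources used here give no age, feeding, litter or collection time, so a difference between stages cannot be told apart from one in feeding or collection time.

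Values are log2 probe set intensities, on which a difference of 1 is a doubling. Array medians lay between 5.09 and 5.15, and replicate arrays correlated across genes at 0.994 to 0.997. The liver label was checked with 11 hepatocyte markers, whose mean log2 level was 13.34 to 13.54 on the arrays, far above the array medians. No probe set was named CYP2D6 (0), and the transgene was not analysed here. The number of arrays limits the precision.

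The pathway turns carbohydrate carbon into palmitate in the cytosol. Acly splits exported citrate to acetyl-CoA, Acss2 makes acetyl-CoA from acetate, and Aacs activates the ketone body acetoacetate. Acaca and Acacb, the acetyl-CoA carboxylases, form malonyl-CoA, which Fasn extends to palmitate with NADPH that Me1, malic enzyme, helps to supply. In liver the program is driven chiefly by SREBP-1c, made from Srebf1 on an insulin signal, and by ChREBP, the product of Mlxipl, on a carbohydrate signal. Thrsp, or Spot 14, is a small protein induced by thyroid hormone and feeding that promotes lipogenesis.

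Promoter sequence is shown for 4 members because they differ in how the arrays behaved and in the letters near their start sites: Fasn and Acss2 had the largest rises after delivery behind Aacs, Thrsp varied most between the pregnancy arrays, and Srebf1 is the regulator. Each sequence is the 160 bases just before an annotated start in RefSeq on GRCm38.p6, on the gene's strand. Capitals mark CCAAT or its reverse complement ATTGG, a box bound by NF-Y; GGGCGG or CCGCCC, a box bound by Sp1; and CATGTG, an E-box. The windows are Fasn chr11:120824548-120824707 (minus strand), Acss2 chr2:155517883-155518042 (plus strand), Thrsp chr7:97417551-97417710 (minus strand) and, for the innermost of 3 annotated Srebf1 starts, chr11:60210472-60210631 (minus strand).
Fasn: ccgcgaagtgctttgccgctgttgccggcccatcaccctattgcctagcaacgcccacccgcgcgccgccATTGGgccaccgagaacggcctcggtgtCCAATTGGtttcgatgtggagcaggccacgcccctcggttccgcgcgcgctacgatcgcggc
Acss2: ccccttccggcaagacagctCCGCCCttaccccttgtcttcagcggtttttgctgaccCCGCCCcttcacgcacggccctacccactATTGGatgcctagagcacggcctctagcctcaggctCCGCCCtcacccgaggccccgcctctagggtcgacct
Thrsp: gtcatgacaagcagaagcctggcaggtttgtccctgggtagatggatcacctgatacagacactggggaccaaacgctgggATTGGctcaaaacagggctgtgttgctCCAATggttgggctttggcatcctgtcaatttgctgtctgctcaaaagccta
Srebf1: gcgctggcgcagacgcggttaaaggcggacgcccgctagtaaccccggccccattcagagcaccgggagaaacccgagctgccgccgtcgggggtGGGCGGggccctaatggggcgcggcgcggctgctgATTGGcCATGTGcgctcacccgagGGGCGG

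In Fasn, CCAAT letters began 90, 62 and 59 bases before the start, and the last pair overlap in a palindrome. Thrsp held them at 79 and 52 bases, Acss2 at 73 and Srebf1 at 30, where a CATGTG followed at 24. RefSeq gave 14 windows for the 10 genes, each from 250 bases before to 50 after a start. On both strands, CCAAT occurred in 9 of the 14 windows, which belong to 8 genes, and in 37.4% of 32851 windows of that length genome-wide. GGGCGG occurred in 6 windows, of 5 genes, against 35.7% of all windows. CATGTG was in 3 windows, of Srebf1, Acacb and Me1, against 14.2%. CACGTG was in 1, of Mlxipl, against 7.15%. The SREBP element TCACCCCAC was in 0 of the 14 and in 0.551% of all windows, and the looser TCACNCCAC in 1, of Mlxipl, against 1.24%. The direct-repeat element of LXR was in 0 of the 14 and in 0.0152% of all. For Aacs and Acaca none of these letters was found in the window used. A match of letters is a description of the sequence and not evidence of binding.

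All 10 genes had their lowest mean level in late pregnancy, and 8 had their highest a week after delivery, Srebf1 by only 0.045. Mean levels ran postpartum, then pre-pregnancy, then pregnancy in 8 genes, and pre-pregnancy, postpartum, pregnancy in Aacs and Thrsp. The lowest array was pregnancy replicate 1 for 9 genes and pregnancy replicate 2 for Me1. The highest was postpartum replicate 1 for 8 genes and postpartum replicate 2 for Srebf1, while Aacs peaked at the same value on both pre-pregnancy arrays. Averaged over the 10 genes and centred on each gene's mean, the profile read 0.15 and 0.12 for the pre-pregnancy arrays, −1.23 and −0.55 for pregnancy and 0.90 and 0.62 for postpartum. Each gene's correlation with the mean of the other 9 over the 6 arrays ran from 0.747 for Thrsp to 0.976 for Acly, as a description over arrays that share their stage.

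**Figure D1:**
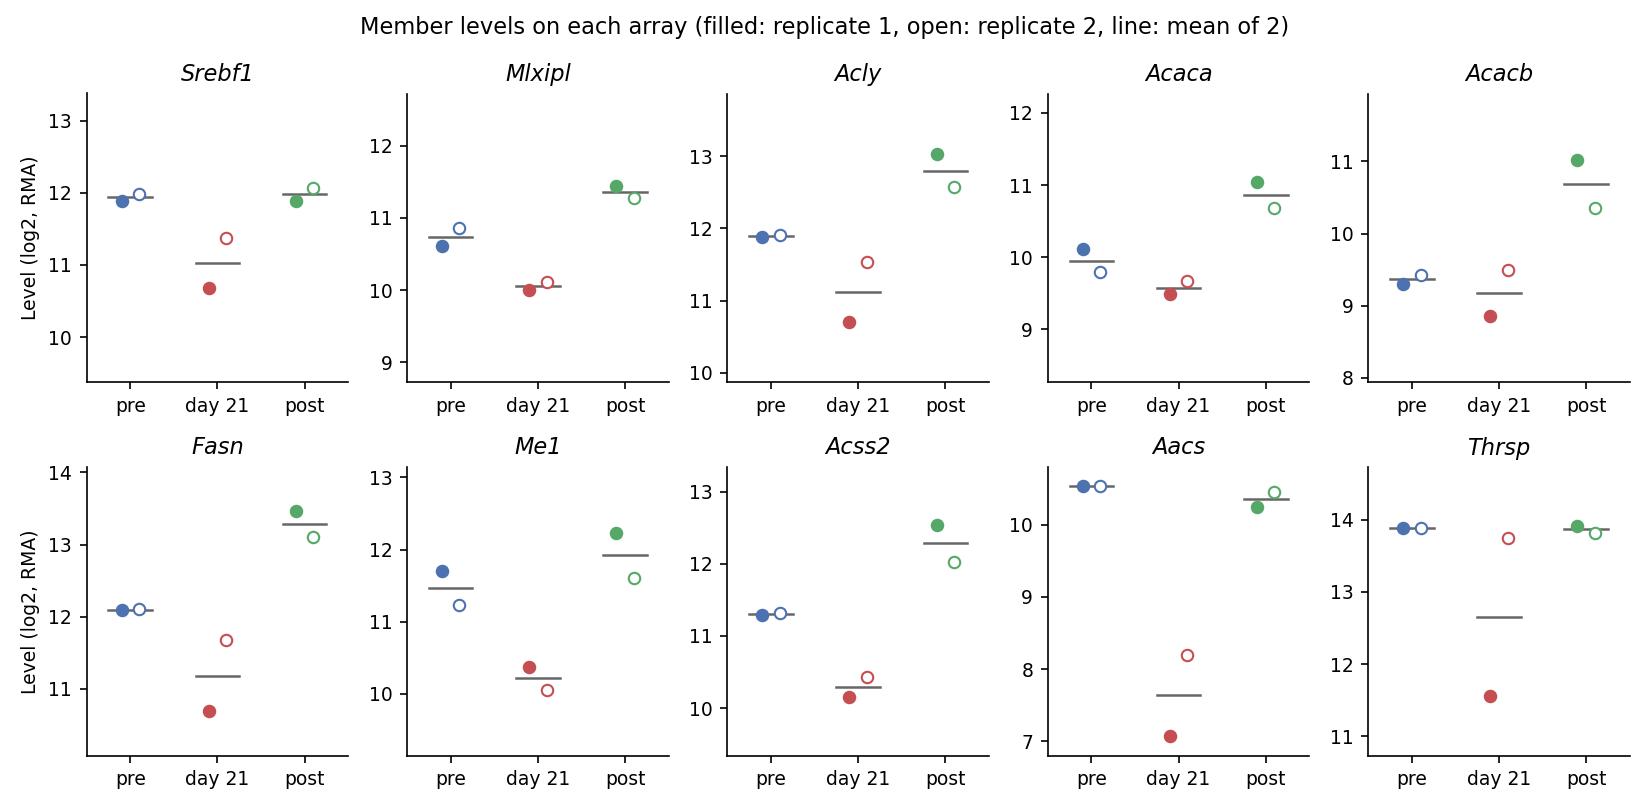
Log2 level of each of the 10 genes on each of the 6 arrays, with filled points for replicate 1, open points for replicate 2, a line at the mean of each stage and stages along the horizontal axis. Pregnancy arrays lie below both other stages for 9 genes, and the pregnancy points are widely split for Thrsp (11.55 and 13.75) and Aacs (7.07 and 8.20).

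Pregnancy at day 21 was set against the pre-pregnancy liver to ask how late gestation differs. Of the 10 genes, 5 were lower and 0 higher by limma's test with Benjamini-Hochberg adjusted p under 0.05, the threshold for every call here. Over all genes tested, 8.25% were called lower and 5.46% higher. At an unadjusted p under 0.05 in the same test, 7 of the 10 were lower and 0 higher. The lower genes were Srebf1, Mlxipl, Me1, Acss2 and Aacs. All 10 differences were negative, with a median of −0.913 against 0.045 over all genes, and 4 were at least 2-fold, a size that 2.57% of all genes reached. The pregnancy arrays lay wholly below the pre-pregnancy arrays in 9 genes, where 59.6% of all genes had arrays that did not overlap in either direction.

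Postpartum livers were then set against pregnancy to ask what happens after delivery. Of the 10 genes, 8 were higher and 0 lower, where 2.41% of all genes were called higher and 0.879% lower (unadjusted p under 0.05 in limma, 9 and 0 of the 10). The exceptions were Srebf1 and Thrsp. All 10 differences were positive, with a median of 1.59 against −0.01 over all genes, and 9 were at least 2-fold against 1.44% of all genes. In all 10 the postpartum arrays lay above the pregnancy arrays, while 50.1% of all genes had arrays that did not overlap.

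The postpartum liver was last set against the pre-pregnancy liver to ask whether levels returned. Of the 10 genes, 5 were higher and 0 lower, against 3.91% and 3.75% of all genes (unadjusted p under 0.05 in limma, 6 and 0 of the 10). These were Mlxipl, Acaca, Acacb, Fasn and Acss2. The median difference was 0.767 against 0.025 over all genes, and 2 genes, Acacb and Fasn, were at least 2-fold higher, a size that 1.74% of all genes reached. Arrays did not overlap in 7 genes, 6 of them higher postpartum and Aacs lower, against 52.6% of all genes. The 3 comparisons share arrays, pregnancy serving in the former pair, so their opposite signs are not independent of each other.

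**Figure D2:**
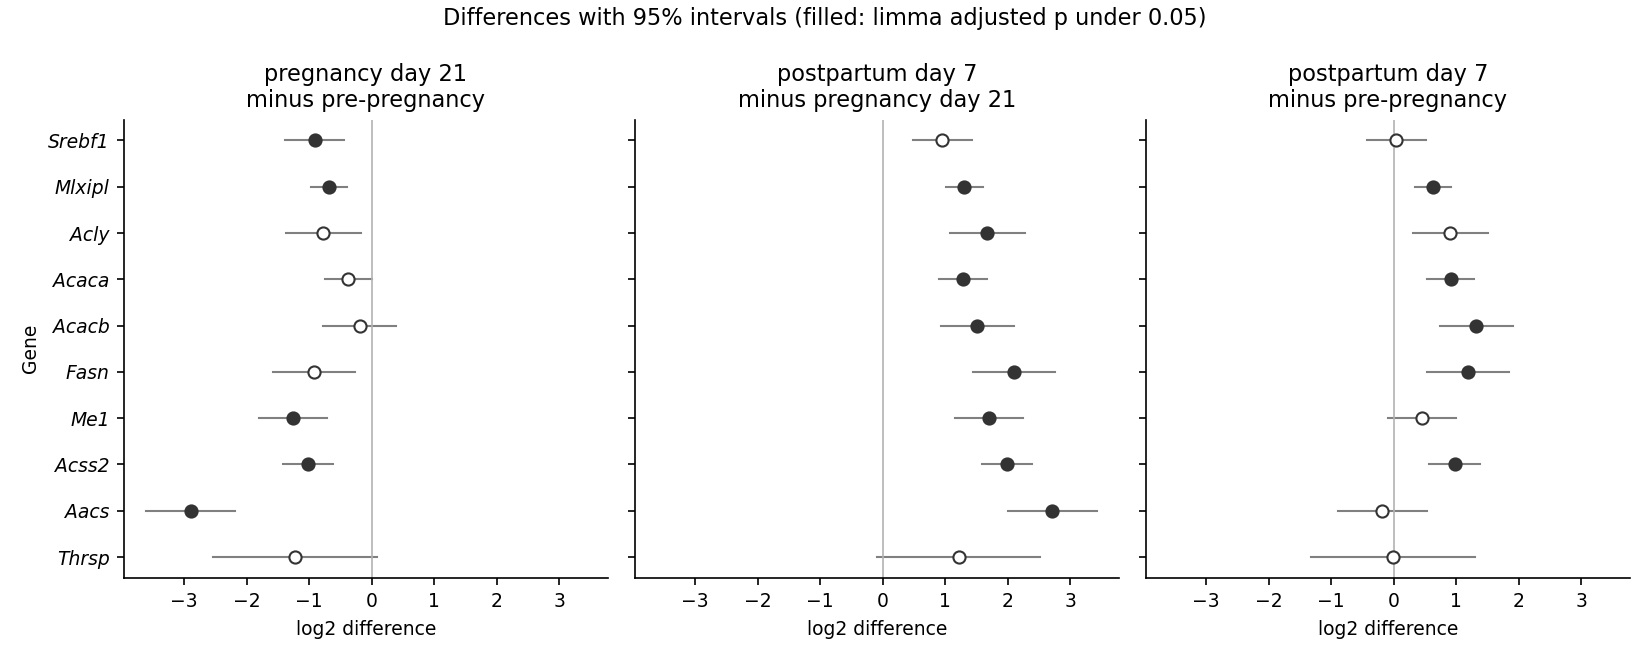
Log2 difference of each gene in the 3 comparisons, with bars for 95% confidence intervals from limma and filled points for adjusted p under 0.05. Differences run from −2.895 for Aacs to −0.19 for Acacb in pregnancy against pre-pregnancy, and from 0.955 for Srebf1 to 2.715 for Aacs in postpartum against pregnancy.

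Among the regulators, Mlxipl passed the test in each comparison. Its log2 level was 10.61 and 10.86 on the pre-pregnancy arrays, 10 and 10.11 on the pregnancy arrays and 11.45 and 11.28 on the postpartum arrays. The 3 stages did not overlap, and the replicate gaps were small. It fell 1.60-fold in pregnancy (log2 −0.68 ± 0.13 SE, n = 2 per stage, adjusted p = 0.0141 by limma). It rose 2.48-fold from pregnancy to postpartum (1.31 ± 0.13 SE, limma adjusted p = 0.00357), and ended 1.55-fold above the pre-pregnancy level (limma adjusted p = 0.0263).

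Srebf1 measured 11.89 and 11.98, then 10.68 and 11.37, then 11.89 and 12.07 over the same order of stages. Both pregnancy arrays were low, replicate 1 by far the more, and the postpartum values overlapped those before pregnancy. It fell 1.88-fold in pregnancy (−0.91 ± 0.21 SE, limma adjusted p = 0.0275), and the difference was −0.565 without pregnancy replicate 1. The difference of 0.955 ± 0.21 from pregnancy to postpartum missed the threshold (limma adjusted p = 0.0514, 95% interval 0.48 to 1.43). Postpartum against pre-pregnancy the difference was 0.045, with a 95% interval from −0.43 to 0.52.

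Thrsp measured 13.88 on both pre-pregnancy arrays, 11.55 and 13.75 on the pregnancy arrays, and 13.91 and 13.82 after delivery. A single array, pregnancy replicate 1, stood apart, and the other 5 lay within 13.75 to 13.91. Its mean difference in pregnancy was −1.23 ± 0.57 SE (limma adjusted p = 0.185), with a 95% interval from −2.54 to 0.08. The difference was −0.13 with pregnancy replicate 1 left out and −2.33 with replicate 2 left out. Either fit leaves 1 pregnancy array, so the spread within pregnancy is not measured. From pregnancy to postpartum it was 1.215 ± 0.57 (limma adjusted p = 0.275), and 0.115 or 2.315 without pregnancy replicate 1 or 2.

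Of the enzymes that form activated precursors, Aacs moved farthest. Its level was 10.53 on both pre-pregnancy arrays, 7.07 and 8.20 in pregnancy, and 10.24 and 10.46 postpartum. Both pregnancy arrays were more than 2 log2 units below every other array. Aacs fell 7.44-fold in pregnancy (−2.895 ± 0.31 SE, limma adjusted p = 0.00235) and rose 6.57-fold afterwards (2.715 ± 0.31, limma adjusted p = 0.00699). Against pre-pregnancy the postpartum difference was −0.18, with a 95% interval from −0.89 to 0.53.

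Acss2 measured 11.29 and 11.32, then 10.15 and 10.43, then 12.53 and 12.03. The stages were fully separated. It fell 2.02-fold in pregnancy (−1.015 ± 0.17 SE, limma adjusted p = 0.0111), rose 3.97-fold after it (1.99 ± 0.17, limma adjusted p = 0.00264) and ended 1.97-fold above pre-pregnancy (limma adjusted p = 0.0192).

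Acly measured 11.88 and 11.91, then 10.71 and 11.54, then 13.03 and 12.57. The pregnancy arrays were again apart from each other, and the postpartum arrays were the highest. The difference of −0.77 ± 0.26 SE in pregnancy missed the threshold (limma adjusted p = 0.0887), as did that of 0.905 between postpartum and pre-pregnancy (limma adjusted p = 0.0772). From pregnancy to postpartum Acly rose 3.19-fold (1.675 ± 0.26, limma adjusted p = 0.0186).

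Me1 measured 11.71 and 11.23, then 10.38 and 10.06, then 12.23 and 11.61. It was the gene whose lower pregnancy array was replicate 2, and its postpartum and pre-pregnancy arrays overlapped. It fell 2.38-fold in pregnancy (−1.25 ± 0.23 SE, limma adjusted p = 0.0151) and rose 3.25-fold after it (1.70 ± 0.23, limma adjusted p = 0.0133). Postpartum against pre-pregnancy the difference was 0.45, with a 95% interval from −0.09 to 0.99.

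Both carboxylases rose after delivery, and neither passed the test for pregnancy against pre-pregnancy. Acaca, whose enzyme makes the malonyl-CoA used for synthesis, measured 10.11 and 9.79, then 9.49 and 9.67, then 11.05 and 10.68. The first 4 values lay close together, with both postpartum arrays above them. Its difference in pregnancy was −0.37 ± 0.16 SE (limma adjusted p = 0.168), with a 95% interval from −0.75 to 0.01. It rose 2.44-fold from pregnancy to postpartum (1.285 ± 0.16, limma adjusted p = 0.0103) and was 1.89-fold above pre-pregnancy (limma adjusted p = 0.0192).

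Acacb, whose product sits at mitochondria and makes the malonyl-CoA that restrains fatty acid import, measured 9.30 and 9.43, then 8.86 and 9.49, then 11.02 and 10.36. It was the gene whose pregnancy and pre-pregnancy arrays overlapped. The pregnancy difference was −0.19 ± 0.25 SE (95% interval −0.77 to 0.39), and it was 0.125 without pregnancy replicate 1. Acacb rose 2.86-fold from pregnancy to postpartum (1.515 ± 0.25, limma adjusted p = 0.0249) and was 2.51-fold above pre-pregnancy (limma adjusted p = 0.0228).

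Fasn measured 12.09 and 12.11, then 10.69 and 11.68, then 13.46 and 13.11. The stages did not overlap, yet the pregnancy replicates lay almost 1 log2 unit apart. The difference in pregnancy was −0.915 ± 0.28 SE (limma adjusted p = 0.0703). It was −0.42 without pregnancy replicate 1 and −1.41 without replicate 2. Fasn rose 4.29-fold from pregnancy to postpartum (2.10 ± 0.28, limma adjusted p = 0.0128) and was 2.27-fold above pre-pregnancy (limma adjusted p = 0.0464).

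These calls rest on few arrays. With each of the 6 arrays left out in turn, the call of a fall in pregnancy was kept throughout by Aacs alone of the 5, and that of a rise after delivery by Mlxipl, Acss2 and Aacs of the 8. The rise above the pre-pregnancy level was kept throughout by 0 of the 5. The count of lower genes in pregnancy was 1 without pre-pregnancy replicate 1 and 2 without pre-pregnancy replicate 2. The count of higher genes after delivery was 5 without either pre-pregnancy array and 3 without postpartum replicate 1. The count above pre-pregnancy was 0 without either pre-pregnancy array or without postpartum replicate 1, and 3 without postpartum replicate 2. Leaving out an array leaves a stage with a lone array, assumed to vary like the others. That assumption is doubtful for Thrsp, with a replicate gap of −2.2 in pregnancy against 0 and 0.09 at the other stages. It is also doubtful for Fasn, with −0.99 against −0.02 and 0.35. The pre-pregnancy arrays do not enter the difference between postpartum and pregnancy. There, leaving one out changed limma's estimate of the spread and not the difference itself.

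The 10 genes had 24 probe sets, of which 17 were at or above the median level of all genes, 6.38, and 7 below it. Srebf1, Mlxipl and Fasn had 1 each. Acly had 6, and its 3 bright ones gave negative differences of unlike size in pregnancy. Beside the brightest at −0.77, probe set 1451666_at fell by 1.18 (limma adjusted p = 0.0137) and 1425326_at fell by 2.225, or 4.68-fold (limma adjusted p = 0.00498). The last measured 10.39 and 10.29, then 7.73 and 8.50, then 10.74 and 9.86, so its postpartum level overlapped pre-pregnancy, where the brightest stood above. The fall of Acly in late pregnancy thus passed the test on 2 of 3 bright probe sets and missed it on the third.

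Acss2 also had a probe set that went another way. Probe set 1446542_at was dim, at 5.27 and 5.15 before pregnancy and 5.75 and 5.37 in pregnancy, and measured 7.29 and 7.73 postpartum. It was 4.93-fold above pre-pregnancy at the end (2.30, limma adjusted p = 0.0014), and its difference in pregnancy was 0.35 (limma adjusted p = 0.235). The bright 1422479_at followed the main one, with −1.535 in pregnancy (limma adjusted p = 0.00485) and 2.265 after it (limma adjusted p = 0.00351). Postpartum against pre-pregnancy it differed by 0.73 and missed the threshold (limma adjusted p = 0.0802), which the main one passed. For Aacs, 1456081_a_at gave −2.55 and 2.32 (limma adjusted p = 0.00153 and 0.00597). The dim Aacs probe set 1451116_at lay between 4.71 and 4.81 on every array and differed by 0 and 0.045, neither called. For Me1, 1416632_at gave −1.12 and 2.01 (limma adjusted p = 0.0197 and 0.0081). Unlike the main Me1 probe set, its postpartum arrays (11.32 and 10.95) lay above its pre-pregnancy arrays (10.58 and 9.91). That difference of 0.89 missed the threshold (limma adjusted p = 0.056). For Thrsp, 1422973_a_at repeated the split of the pregnancy arrays, at 10.28 and 13.24, against 13.18 to 13.57 on the other arrays. A further Thrsp probe set, 1444166_at, lay between 7.02 and 7.42 on every array, without that split.

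**Figure D3:**
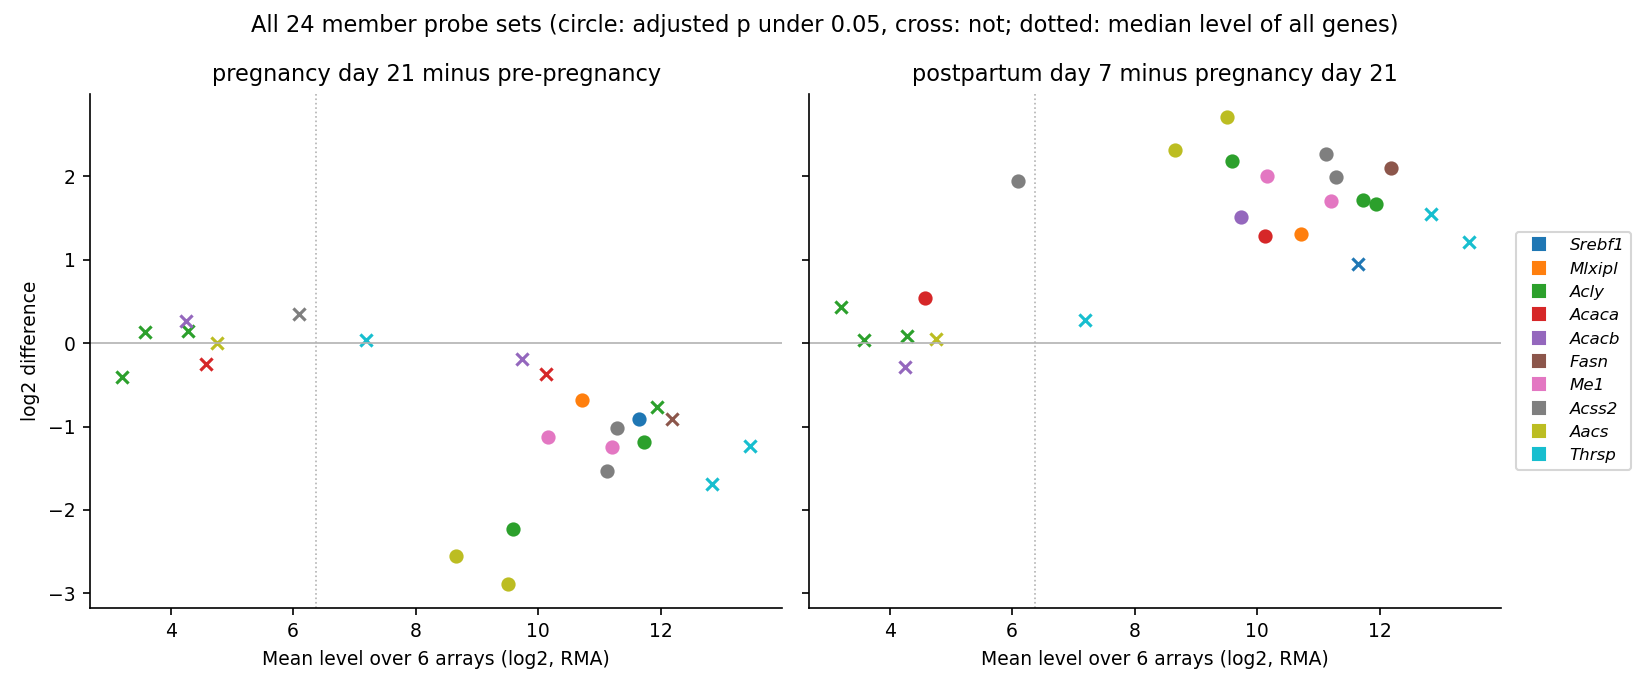
Log2 difference of each of the 24 probe sets against its mean log2 level over the 6 arrays, for pregnancy against pre-pregnancy and postpartum against pregnancy, with colours for genes, circles for adjusted p under 0.05 and crosses for the rest. Probe sets left of the dotted line at 6.38 lie nearer 0 in pregnancy than most to its right, and the bright Acly probe sets run from −0.77 to −2.225.

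The spread within pregnancy was itself shared by the genes. Pregnancy replicate 2 exceeded replicate 1 in 9 of 10, with a median gap, replicate 1 minus replicate 2, of −0.66 against 0.02 over all genes. Gaps of at least 0.5 occurred in 6 of the 10 genes, against 5.25% of all genes. Thrsp had the widest, −2.2, which 0.0769% of all genes matched in size, followed by Aacs at −1.13 and Fasn at −0.99, matched by 0.616% and 0.934%. Mlxipl and Acaca had gaps of −0.11 and −0.18, near the median size of 0.14 over all genes, while the gap of Srebf1 was −0.69, matched in size by 2.23%.

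Among the postpartum arrays replicate 1 exceeded replicate 2 in 8 genes, with a median gap of 0.36 against −0.01 over all genes. There 3 genes had gaps of at least 0.5, Acacb at 0.66, Me1 at 0.62 and Acss2 at 0.50, against 2.85% of all genes. Before pregnancy 0 genes had such a gap, against 2.16%, and the widest was 0.48 for Me1.

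**Figure D4:**
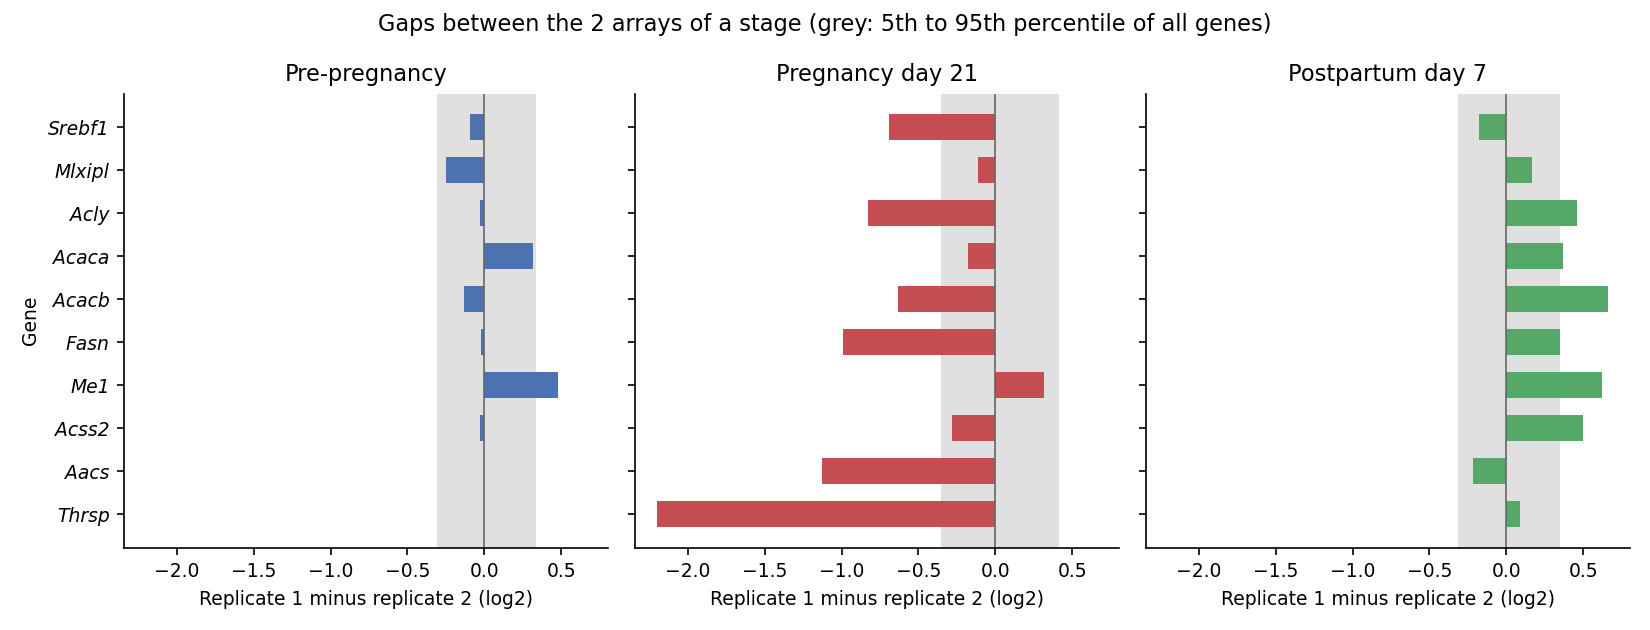
Gap between replicate 1 and replicate 2 of each stage, in log2 units, drawn as bars for the 10 genes, with the range from the 5th to the 95th percentile of all genes as a grey band. In pregnancy the gaps reach −2.2 for Thrsp, where the band runs from −0.35 to 0.41.

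Genes of the clock and of feeding were set beside this split. Of 11 clock genes, 6 had gaps of at least 0.5 between the pregnancy arrays and 5 had smaller ones, Cry1, Npas2, Nr1d1, Nr1d2 and Per1, against 2 of 11 before pregnancy and 1 of 11 postpartum. Of 11 feeding genes, 4 had such gaps in pregnancy, and 4 also before pregnancy and postpartum. The feeding genes with smaller gaps in pregnancy included Fgf21, Igfbp1, Lpin1 and Pck1. Among those with wide gaps, replicate 1 against replicate 2 read 9.45 and 12.39 for Cyp7a1, which starts bile acid synthesis, and 10.44 and 6.03 for Cyp4a14, a fatty acid hydroxylase induced in fasting. Pdk4, a kinase that restrains pyruvate oxidation in fasting, read 7.72 and 6.28. The clock factor Arntl read 7.62 and 5.66, Dbp read 10.05 and 11.55, and Per2 read 6.78 and 8.02. Both lists were picked after values were seen, and their part in the split of the lipogenic genes was not tested. The 3' minus 5' log2 difference of actin probe sets, a measure of RNA integrity, was 1.19 to 1.27 on pre-pregnancy arrays, 1.06 to 1.21 on pregnancy arrays and 1.43 to 1.44 on postpartum arrays, and for Gapdh −0.02 to 0, 0.09 to 0.27 and 0.29 to 0.30. Its part in the differences between stages was not tested.

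Genes around the core were described in 10 lists. Of their 121 genes, 10 were higher and 18 lower in pregnancy, where 5.46% and 8.25% of all genes were. After it 15 were higher and 4 lower, against 2.41% and 0.879%, and postpartum against pre-pregnancy 20 were higher and 9 lower, against 3.91% and 3.75%. Some lists had larger shares, such as 5 of 15 genes after palmitate higher after pregnancy. Others had 0 called, such as insulin and nutrient signalling in that comparison. The lists are small and were not tested as sets, so the counts below are a description. With each array left out in turn, the called genes numbered 5 to 22, 6 to 15 and 1 to 25, fewest without pre-pregnancy replicate 1 in the first and last comparison, and without either pre-pregnancy array or postpartum replicate 1 in the second. The calls kept throughout were those of Fgf21, Gpd1, H6pd, Prkaa2 and Bdh2 in pregnancy, of Txnip, Fgf21, Rpia and Tkt after it, and of Dio1 postpartum against pre-pregnancy. Every other call in these 10 lists was lost without at least 1 array.

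**Figure D5:**
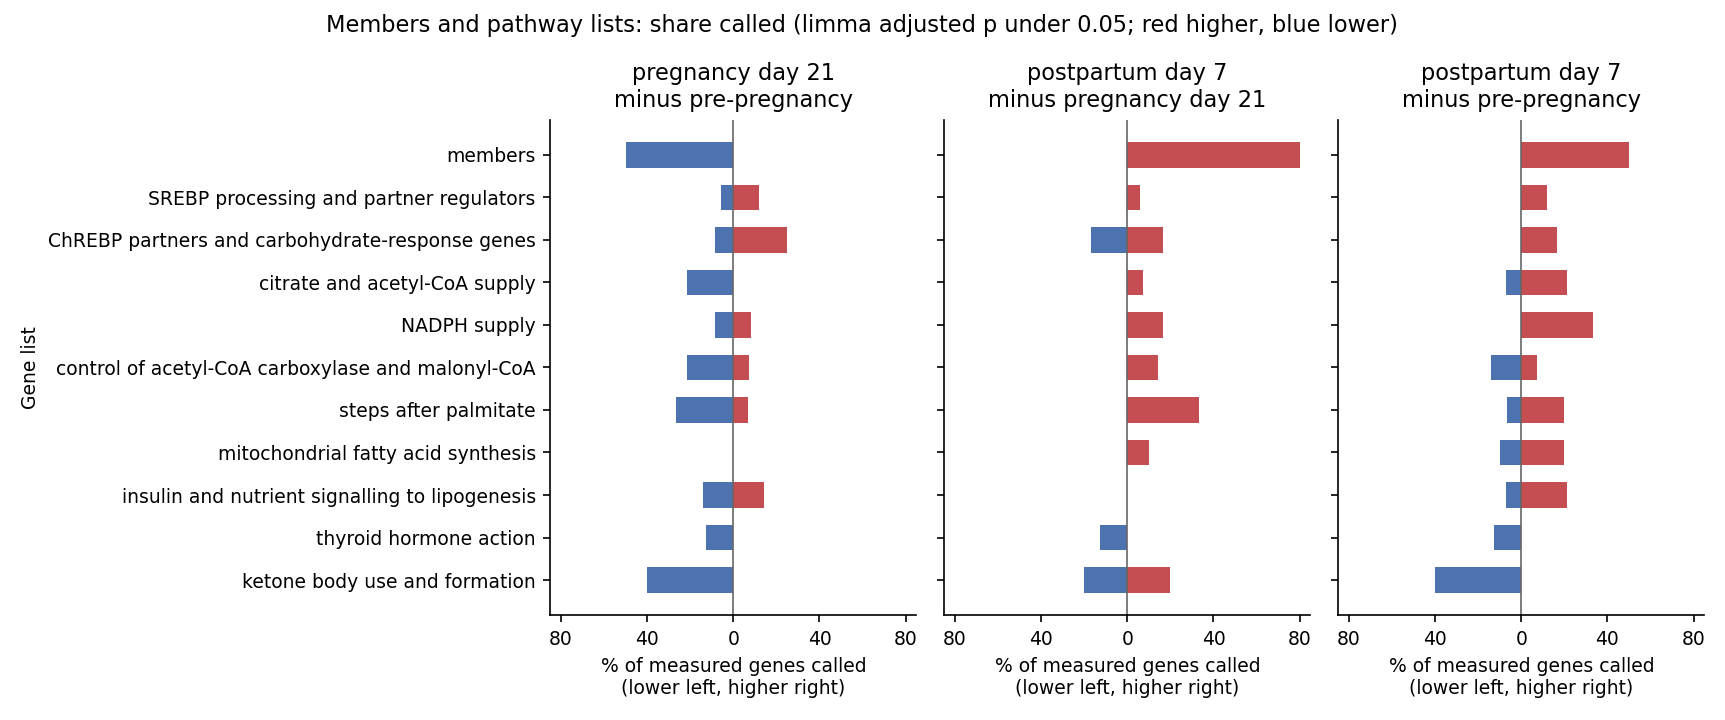
Share of measured genes called in each pathway list and in the 10 genes (the top bars), in percent, with lower genes to the left in blue and higher genes to the right in red, for the 3 comparisons. The top bars stand for 5 of 10 lower, 8 of 10 higher and 5 of 10 higher.

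Of 17 genes that process SREBP or act with it, 2 were higher and 1 lower in pregnancy, 1 higher and 0 lower after it (at an unadjusted p under 0.05, 1 and 1), and 2 higher and 0 lower postpartum against pre-pregnancy (unadjusted 2 and 1). The medians were 0.055, 0.085 and 0.16. Insig1, the retention protein that is itself an SREBP target, measured 12.69 and 12.77, then 11.20 and 12.02, then 12.85 and 12.93. Its pregnancy arrays were both low and split in the same direction as those of Srebf1. Insig1 fell by 1.12 (limma adjusted p = 0.0204) and rose by 1.28 (limma adjusted p = 0.031). Scap, the SREBP escort, went the other way in pregnancy and rose by 0.645, ending 0.885 above pre-pregnancy (limma adjusted p = 0.0307 and 0.0167). Usf2, a factor of the Fasn promoter, rose by 0.545 in pregnancy and stood 0.56 above pre-pregnancy at the end. Nr1h3, which encodes LXRα, an activator of Srebf1, differed by −0.09, −0.02 and −0.11, none called.

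Of 12 partners and carbohydrate-response genes of ChREBP, 3 were higher and 1 lower in pregnancy, 2 and 2 after it, and 2 and 0 postpartum against pre-pregnancy (unadjusted 5 and 2). The medians were −0.035, 0.19 and 0.30. Fgf21, a fasting and carbohydrate hormone, measured 6.39 and 6.48, then 8.20 and 7.81, then 6.29 and 6.25, opposite in order to Mlxipl. It rose by 1.57 in pregnancy and fell by 1.735 after it (limma adjusted p = 0.00128 and 0.00249). Txnip, which restrains glucose uptake, rose by 0.625 and fell by 1.26. Gpd1, which makes glycerol phosphate, rose by 0.995 in pregnancy and stayed 1.025 above pre-pregnancy. Khk, fructokinase, fell by 0.605 and rose by 0.885. Mlx, the partner of ChREBP, rose by 0.51 after pregnancy, and Tkfc was 0.72 above pre-pregnancy at the end. Pklr, liver pyruvate kinase and a classical ChREBP target, differed by 0.055, 0.69 and 0.745, none called.

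Supply of citrate and acetyl-CoA was measured by 14 genes, with 0 higher and 3 lower in pregnancy (unadjusted 0 and 6), 1 and 0 after it (unadjusted 8 and 0), and 3 and 1 postpartum against pre-pregnancy. The medians were −0.205, 0.28 and −0.0425. Slc25a1, the citrate carrier that feeds Acly, measured 10.81 and 10.78, then 10.79 and 10.86, then 11.36 and 11.37. It differed by 0.03 in pregnancy and was then higher on both postpartum arrays, by 0.54 against pregnancy and 0.57 against pre-pregnancy (limma adjusted p = 0.031 and 0.0168). Dld, Aco1 and Mpc1 fell in pregnancy by 0.695, 0.48 and 0.355. Dlat and Cs were 0.645 and 0.615 above pre-pregnancy at the end, and Mpc1, part of the pyruvate carrier, differed by −0.47.

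Supply of NADPH was measured by 12 genes, with 1 higher and 1 lower in pregnancy, 2 and 0 after it (unadjusted 3 and 1), and 4 and 0 postpartum against pre-pregnancy (unadjusted 5 and 1). The medians were −0.0875, 0.125 and 0.075. Tkt, transketolase, measured 12.14 and 11.96, then 11.95 and 11.83, then 12.97 and 12.91, and Rpia, which isomerises ribose phosphate, measured 7.61 and 7.51, then 7.15 and 7.28, then 8.72 and 8.50. Both stood highest postpartum, without overlap. Tkt rose by 1.05 and Rpia by 1.395 after pregnancy (limma adjusted p = 0.00531 and 0.0026). Pgd, an NADPH-forming dehydrogenase of the same route, differed by 0.60 in pregnancy and 0.81 after it, neither called, and was 1.41 above pre-pregnancy at the end (limma adjusted p = 0.0115). H6pd rose by 0.90 and Rpe fell by 0.435 in pregnancy. G6pdx was not analysed here.

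Control of the carboxylases and of malonyl-CoA was measured by 14 genes, with 1 higher and 3 lower in pregnancy, 2 and 0 after it (unadjusted 2 and 1), and 1 and 2 postpartum against pre-pregnancy. The medians were −0.0275, 0.01 and −0.01. Mid1ip1, the relative of Thrsp that promotes polymerisation of the carboxylase, measured 10.81 and 10.62, then 9.21 and 9.92, then 11.13 and 11.02. It fell by 1.15 and rose by 1.51 (limma adjusted p = 0.0138 and 0.0137). The AMPK catalytic subunits, which phosphorylate and inhibit the carboxylases, were both lower in pregnancy. Prkaa2 fell by 0.875 and Prkaa1 fell by 0.78 (limma adjusted p = 0.00296 and 0.0102). Prkaa2 rose by 0.48 after it (limma adjusted p = 0.04905). Prkaa1, dim at 5.57 to 6.55, still differed by −0.735 postpartum against pre-pregnancy (limma adjusted p = 0.0188). Prkab2, a regulatory subunit, rose by 0.435. Cpt1a, the import step that malonyl-CoA inhibits, differed by −0.73 postpartum against pre-pregnancy (limma adjusted p = 0.0273). Mlycd, which breaks malonyl-CoA down, differed by 0.055, −0.04 and 0.015, none called.

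After palmitate, 15 genes gave 1 higher and 4 lower in pregnancy, 5 and 0 after it (unadjusted 6 and 1), and 3 and 1 postpartum against pre-pregnancy. The medians were −0.125, 0.275 and 0.285. Elovl6, which elongates palmitate, measured 12.04 and 11.09, then 9.02 and 9.96, then 12.89 and 12.04, with its lowest arrays in pregnancy and pre-pregnancy and postpartum arrays that met at 12.04. It fell by 2.075 and rose by 2.975 (limma adjusted p = 0.018 and 0.0133), and its difference of 0.90 postpartum against pre-pregnancy was not called (limma adjusted p = 0.246). The desaturase Scd1 fell by 0.785 and rose by 1.085, and Scd2 fell by 0.835 and rose by 1.43. Acsl3 fell by 1.24 and Fads1 rose by 0.45 in pregnancy. Gpam and Elovl1 rose by 0.92 and 0.815 after it and stood 0.795 and 0.625 above pre-pregnancy at the end, as Acsl5 did by 0.52. Lpin1, a phosphatidate phosphatase, was the lower gene of that comparison, at −1.09.

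Mitochondrial fatty acid synthesis, a separate route that makes lipoate, gave 0 higher and 0 lower of 10 in pregnancy (unadjusted 2 and 2), 1 and 0 after it (unadjusted 1 and 2), and 2 and 1 postpartum against pre-pregnancy. Its medians were −0.075, 0.127 and −0.0725. Lipt1 was higher after pregnancy by 0.545. Against pre-pregnancy Lipt1 and Lias, lipoyl synthase, were higher by 0.46 and 0.415, and Lipt2 was lower, at −0.82. Insulin and nutrient signalling gave 2 higher and 2 lower of 14 in pregnancy, 0 and 0 after it (unadjusted 2 and 1), and 3 and 1 postpartum against pre-pregnancy. Irs2, an insulin receptor substrate, rose by 1.125 and was 1.00 above pre-pregnancy at the end, with 6.88 and 7.56, then 8.21 and 8.48, then 8.35 and 8.09. Mtor rose by 0.89, and Rheb and Akt1 fell by 0.65 and 0.575 in pregnancy. Against pre-pregnancy Irs1, another receptor substrate, and Mtor were higher by 0.845 and 0.65, and Rheb was lower, at −0.845.

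Thyroid hormone action gave 0 higher and 1 lower of 8 in each comparison (unadjusted 1, 0 and 1 higher and 1 lower in each). Dio1, the deiodinase that activates the hormone which induces Thrsp, measured 12.51 and 12.50, then 11.90 and 11.94, then 11.39 and 11.38. It declined in steps, with −0.585, −0.535 and −1.12 in the 3 comparisons (limma adjusted p = 0.00985, 0.031 and 0.00189), an order unlike that of any of the 10 genes. Ketone body use and formation gave 0 higher and 2 lower of 5 in pregnancy (unadjusted 1 and 2), 1 and 1 after it, and 0 and 2 postpartum against pre-pregnancy (unadjusted 0 and 3). Bdh2 fell by 1.345 and rose by 0.915, and Oxct1, which uses the same acetoacetate as Aacs, fell by 0.595 in pregnancy. Acat1, a mitochondrial thiolase of ketone metabolism, was lower after delivery than at either earlier stage, at −0.77 against pregnancy and −0.865 against pre-pregnancy. Bdh1, which interconverts the ketone bodies, was lower than pre-pregnancy at the end, at −0.47.

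The genes most like the 10 in pattern were ranked by Pearson correlation with their centred mean profile over the 6 arrays. The 1247 candidates, the 10 left out, had a range of at least 1 log2 unit. Their highest stage mean was also at or above 6.38, the median level of all genes. The 8 highest were Rdh11 at 0.995, Mid1ip1 at 0.984, Pmvk at 0.978, Dhcr7 at 0.974, Elovl6 at 0.973, Asb2 at 0.971, Fdft1 at 0.970 and Cyp51 at 0.968. Rdh11, a retinal reductase, measured 10.49 and 10.27, then 8.75 and 9.39, then 11.31 and 10.84, and so shared the split of the pregnancy arrays. Pmvk, Dhcr7, Fdft1 and Cyp51 encode enzymes of cholesterol synthesis. Pmvk measured 9.86 and 9.85, then 8.64 and 8.85, then 10.53 and 10.13. Since these genes were picked for their likeness, their values are a description.

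Markers of other cells were set beside these results, and in whole liver fewer cells of a type and less RNA per cell cannot be told apart. Fat tissue also makes fatty acids, and of 8 adipocyte markers 0 were called in any comparison by limma (at an unadjusted p under 0.05, 1 higher in pregnancy, 1 lower after it and 1 lower postpartum against pre-pregnancy), 6 lay below the median of all genes, and Adipoq was at 3.38 to 3.60. Their summed level, in log2, was 13.06 to 13.25, then 13.08 to 13.30, then 12.16 to 12.81, and nearly all of it was Pck1, which hepatocytes also express. Without Pck1 the other 7, at levels of 3.38 to 6.66, summed to 7.58 to 7.59, then 7.64 to 7.68, then 7.59 to 7.74. Mammary gland is lipogenic too, and of 9 mammary epithelium markers 2 were higher in pregnancy, Krt14 and Krt18, and 0 lower (unadjusted 3 and 1). Krt18, which hepatocytes also express, made up nearly all of a sum of 11.36 to 11.48, 12.04 to 12.22 and 11.99 to 12.05. Without it the other 8, caseins and Wap among them, lay at 3.26 to 5.31. Of 11 hepatocyte markers 4 were higher in pregnancy, Apob, Asgr1, Asgr2 and F2, and 0 lower (unadjusted 5 and 0), with sums of 17.27 to 17.28, 17.40 to 17.42 and 17.29 on both postpartum arrays. Of 13 endothelial markers 0 were higher and 3 lower in pregnancy, Emcn, Kdr and Tek (unadjusted 1 and 8), with sums of 12.83 to 13.24, 12.62 to 12.70 and 12.55 to 12.64. Postpartum against pre-pregnancy 0 endothelial markers were called (unadjusted 0 higher and 7 lower). Of 13 Kupffer cell markers 1 was higher, Cd163, and 3 lower, Fcgr1, Lyz2 and Timd4, with sums of 13.10 to 13.18, 12.73 to 13.04 and 13.06 to 13.16. Of 10 pancreatic acinar markers, Cela3b was higher in pregnancy, by 3.035, and lower after it, and Cela1 was lower in pregnancy and postpartum than before. Of 10 neutrophil and lymphocyte markers, S100a9 was higher and Ptprc lower in pregnancy, S100a9 was lower after it, and Ms4a1 was lower postpartum than before pregnancy. Of 11 stellate cell markers, Lrat was lower in pregnancy, and 0 were called postpartum against pre-pregnancy (unadjusted 1 higher and 4 lower). Of 6 bile duct and 5 erythroid markers 0 were called by limma in any comparison (at an unadjusted p under 0.05, 2 and 1 bile duct markers higher postpartum against pregnancy and pre-pregnancy, and 0 erythroid). The bile duct marker Krt19 read 7.07 on postpartum replicate 1, the array highest for 8 of the 10 lipogenic genes, and 4.77 to 5.37 on the other arrays. Epcam (6.14), Sox9 (4.97) and, narrowly, Cftr (3.52) were also highest there, while Krt7 (4.47) and Cldn4 (4.66) were not. The part of these markers in the differences of the lipogenic genes was not tested.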

How the data were processed

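Total RNA from CYP2D6-humanized mouse livers was extracted with Trizol, and 250 ng was labelled with biotin for Affymetrix 3' arrays, per the labels' protocols. The deposited table holds log2 values of 45101 probe sets on 6 arrays, made with RMA and Affymetrix Power Tools per the submitters' processing notes, whose versions are not given. The log2 base was inferred from the values. RMA usually equalises the distributions of arrays, so a shift common to most genes would be lost, and it compresses differences near background.

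By the platform annotation 34958 probe sets had 1 symbol, 932 several and 9211 none, and the brightest on average of each of 18194 genes was used. The test was limma 3.58.1 under R 4.3.3 (lmFit, a mean per stage over all 6 arrays, eBayes, 3 residual and 4.8 prior degrees of freedom), with Benjamini-Hochberg adjustment over all genes and a two-sided threshold of 0.05. SE is limma's moderated error. The scripts were tested on simulated data.

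The 10 genes and the lists around them were chosen with earlier results of these data known. Of each list, the called genes with the 3 largest differences per comparison were named, 13 genes were named whatever their values, and others that complete a small count or single out a pattern (feeding, clock and cell type genes) were chosen after their values were seen. The alternatives were a further quantile normalization, median centring, a filter on dim genes (under 5.515), a trended and robust variance, other probe set rules, fitting 2 stages alone, a replicate block, leaving out each array, and a threshold of 0.1. The labels do not say whether arrays with the same replicate number are tied. Deviations of same-numbered arrays correlated at 0.0285, 0.111 and −0.0273 across stages, which with 2 arrays per stage cannot settle it. Promoter sequences are RefSeq's on GRCm38.p6. No array column was left unused (0).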

Additional observations from a re-analysis of the deposited data

How the results depend on the processing

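Repeated quantile normalization, median centring, the filter on dim genes and the replicate block kept every call of the 10 genes. With each array left out in turn, calls of the 10 genes ranged over 1 to 7 lower in pregnancy, 3 to 9 higher after it and 0 to 6 higher postpartum against pre-pregnancy, and genes called overall over 323 to 1977, 115 to 528 and 73 to 1582. Fitting only the stages compared gave 203 genes and 5 of the 10 after pregnancy, and the mean of all probe sets gave 3 of the 10 postpartum against pre-pregnancy. At an adjusted p under 0.1, 4066, 1337 and 2489 genes were called, and with every probe set by itself 4475 in pregnancy and 2679 postpartum against pre-pregnancy, where more features were tested. The trended and robust variance kept 6 of 8 calls after pregnancy, losing Acly and Fasn, and 4 of 5 against pre-pregnancy, losing Fasn. Repeated quantile normalization moved the calls to 1284 higher and 1150 lower in pregnancy (52.8% higher against 39.8%) and 286 and 189 after it (60.2% against 73.3%). The replicate block gave 2612, 574 and 1568 genes and added Srebf1 to the 10 genes' calls after pregnancy, as did median centring, with 5, 9 and 5 of the 10 called.

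Signs turned for differences near 0 or on dim probe sets, and the cause was not tested. In pregnancy these were Acacb with the mean of all probe sets (0.035), without pregnancy replicate 1 (0.125, against −0.505 without replicate 2) and on 1445754_at (0.26), Acly on 1446315_at (0.145) and 1439445_x_at (0.135), Acss2 on 1446542_at (0.35) and Thrsp on 1444166_at (0.04). After pregnancy it was Acacb on 1445754_at (−0.28). Against pre-pregnancy they were Aacs on 1451116_at (0.045), Acacb on 1445754_at (−0.02), Acly on 1425326_at (−0.04), Srebf1 without postpartum replicate 2 (−0.045), and Thrsp with the mean of all probe sets (0.055), without postpartum replicate 2 (0.03, against −0.06 without replicate 1) and on 1444166_at (0.32). The number of arrays limits all of these.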

Other observations

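Lists of genes outside lipid synthesis, picked after values were seen, are given by stage. Of 11 genes that respond to fasting and feeding, 1 was higher in pregnancy, Fgf21, and 0 lower. After pregnancy 0 were higher and 2 lower, Fgf21 and Angptl4, and against pre-pregnancy 0 were higher and 3 lower, Angptl4, Cpt1a and Lpin1. Angptl4, a fasting-induced inhibitor of lipoprotein lipase, measured 10.98 and 10.93, then 11.64 and 11.23, then 9.91 and 9.46 over pre-pregnancy, pregnancy and postpartum, and fell by 1.75 after pregnancy (limma adjusted p = 0.00471). Of 11 core clock genes, 1 was higher and 1 lower in pregnancy, 0 and 0 after it (at an unadjusted p under 0.05 by limma, 0 and 1), and 1 and 1 postpartum against pre-pregnancy. Cry1, a clock repressor, measured 8.44 and 8.19, then 7.05 and 6.69, then 6.58 and 7.08, and fell by 1.445 in pregnancy (limma adjusted p = 0.00472). Nr1d1, which encodes the receptor REV-ERBα, measured 5.71 and 6.57, then 7.72 and 7.41, then 7.52 and 7.55, and rose by 1.425 (limma adjusted p = 0.012). From pregnancy to postpartum they differed by −0.04 for Cry1 and −0.03 for Nr1d1, neither called.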
